A study of Mus musculus with 9 samples.

Results

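The collagen genes are described here as they were read in cholinergic nuclei of the mouse spinal cord. They were taken as every gene of the expression matrix whose symbol is *Col*, a number, *a* and a number, and that reached 10 CPM (the share of a gene in all corrected counts of a sum, in parts per 1000000) in at least 3 of 171 sums, where a sum adds up the nuclei of 1 cluster in 1 library. Of 21457 features, 44 had such a symbol and 38 of these passed. *Col3a1* passed with 3 sums, and *Col4a6* and *Col6a4* with 4 each. The nearest gene outside was *Col13a1*, a transmembrane collagen of the neuromuscular junction, with 2 sums. *Col8a2* and *Col10a1* had 1 sum each, while *Col17a1* and the chains of type I collagen, *Col1a1* and *Col1a2*, had 0.

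Collagens are proteins built of 3 chains wound into a helix, and most are secreted into the extracellular matrix. Fibril-forming types make up tendon, bone and cartilage, network types such as type IV line basement membranes, beaded filament types (type VI) surround cells, and the FACITs (fibril-associated collagens with interrupted triple helices) sit on the surface of fibrils. Transmembrane collagens and multiplexins are often shed or cleaved to release soluble parts, and several collagens are known for roles in axon growth and in synapses between nerve and muscle.

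All mice carried *Chat-IRES-Cre* and *Sun1-sfGFP* (given as Chat-iCre:+/wt; SUN-SfGFP:+/wt) and were 8 weeks old. By these alleles nuclei with present or past *Chat* expression were labelled and sorted as GFP+. The 12 mice made 3 pools of 4: replicate 1 held 2 males and 2 females, replicate 2 only males and replicate 3 only females, so sex and pool cannot be told apart. Each pool gave 1 cervical, 1 thoracic and 1 lumbar/sacral library, and cervical and thoracic libraries together are called rostral here. There was no treatment and no other genotype. The authors removed nuclei that were not cholinergic and divided the remaining 16042 into skeletal motor neurons (MNs; clusters S1 to S3), visceral MNs (V1 to V10) and interneurons (I1 to I8), where S2 is their alpha, S3 their gamma and S1 their type 3 skeletal MN.

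Libraries held 747 to 2825 cholinergic nuclei with a median of 4712 to 16127 corrected counts per nucleus. The summed markers of skeletal and of visceral MNs were each highest in their own class. The sum of *Tns1*, *Prph* and *Isl1* had a median of 638.8 CPM in skeletal MNs, 13.2 in interneurons and 167 in visceral MNs, and that of *Zeb2*, *Fbn2* and *Nos1* 32.6, 435.6 and 1263 CPM in the same order. Of the visceral markers, *Nos1* alone was higher in interneurons (445.9 ± 61.99 CPM) than in visceral MNs (208 ± 34.7 CPM, SD, n = 9). The sum of the cholinergic markers *Chat*, *Slc5a7* and *Ache* was low in I2, I7 and I8, at medians of 111, 93.5 and 141.6 CPM. Every other cluster had a median of at least 360.8 CPM, the value of I1. The libraries labelled cervical 2 and thoracic 2 went against their labels. In skeletal MNs, *Hoxc5*, a gene of position along the body axis, was at 16.1, 82.5 and 15.6 CPM in the libraries labelled cervical 1, 2 and 3 and at 101.5, 9.44 and 94.5 CPM in those labelled thoracic 1, 2 and 3. The difference of lumbar/sacral from the mean of the rostral libraries is the same whether or not these 2 libraries are exchanged, and the calls on regions are also given without them. In addition, the 71 nuclei of S2 in the library labelled cervical 2 stood apart, with visceral markers at up to 257 CPM against a median of 21.8 CPM over the S2 libraries. Over libraries, 33 barcode sequences of cholinergic nuclei were shared, and at most 12 of all nuclei by any pair of libraries. Markers of cells that make much collagen were low in the class sums: over the class sums of the libraries, the summed level of 4 endothelial markers ran from 2.94 to 41.3 CPM, that of 4 pericyte markers reached 7.75 CPM and that of 6 fibroblast or meningeal markers 38.2 CPM, of which 5 had a mean under 1 CPM in each class. The exception was the fibronectin gene *Fn1*, and in V3 the fibroblast or meningeal sum ran from 4.91 to 167 CPM (median 74.3). The sums of 3 Schwann cell, 4 astrocyte, 4 oligodendrocyte and 4 microglia markers reached 21.7, 7.17, 90.6 and 118 CPM. Their part in the collagen levels was not tested.

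The upstream sequences of 4 genes are shown because these members were called between regions both in visceral MNs as a whole and in the visceral cluster V2, as described further on. Each line holds the 250 bases before the start of the gene in RefSeq (build GRCm38.p6), 5′ to 3′ on the strand of the gene, with matches to 4 short motifs in capitals (the GC box GGGCGG, the CCAAT box, the TATA box TATAAA and the E-box CACGTG, either strand). The windows are chr16:57754738-57754987 on the minus strand for *Col8a1*, and on the plus strand chr3:114030290-114030539 for *Col11a1*, chr3:145292222-145292471 for *Col24a1* and chr3:130180595-130180844 for *Col25a1*. The last lies inside the GENCODE extent of *Col25a1*, which begins at 130131501, and thus marks 1 of its starts.
Col8a1: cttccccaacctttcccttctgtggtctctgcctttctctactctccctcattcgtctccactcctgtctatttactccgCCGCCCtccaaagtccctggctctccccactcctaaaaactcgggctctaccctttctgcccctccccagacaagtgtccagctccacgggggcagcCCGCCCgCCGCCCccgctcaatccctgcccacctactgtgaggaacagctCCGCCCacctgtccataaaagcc
Col11a1: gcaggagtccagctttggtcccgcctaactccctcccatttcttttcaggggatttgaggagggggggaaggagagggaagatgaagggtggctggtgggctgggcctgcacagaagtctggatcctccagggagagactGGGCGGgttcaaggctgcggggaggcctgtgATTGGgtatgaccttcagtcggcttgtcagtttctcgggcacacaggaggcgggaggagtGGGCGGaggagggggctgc
Col24a1: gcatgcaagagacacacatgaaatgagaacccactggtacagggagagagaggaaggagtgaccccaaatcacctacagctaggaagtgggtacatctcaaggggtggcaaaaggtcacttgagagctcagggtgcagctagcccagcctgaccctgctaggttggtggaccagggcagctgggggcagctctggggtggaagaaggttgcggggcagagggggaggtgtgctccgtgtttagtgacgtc
Col25a1: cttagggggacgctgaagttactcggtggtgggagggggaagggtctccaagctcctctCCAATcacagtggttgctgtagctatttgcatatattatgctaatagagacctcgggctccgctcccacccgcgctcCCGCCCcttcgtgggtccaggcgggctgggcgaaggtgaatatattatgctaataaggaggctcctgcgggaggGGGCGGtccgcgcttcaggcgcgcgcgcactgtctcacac
The window of *Col8a1* held 4 GC boxes, those of *Col11a1* and *Col25a1* held 2 GC boxes and 1 CCAAT box each, and that of *Col24a1* held none of the 4 motifs. Of 32851 RefSeq windows of this length, 32.7% held the GC box, 33.9% the CCAAT box, 12.4% the TATA box and 6.02% the E-box. Among the 30 members with a RefSeq window, 19 held the GC box, 11 the CCAAT box, 2 the TATA box and 0 the E-box. *Col4a1* (chromosome 8, minus strand) and *Col4a2* (plus strand) are a head-to-head pair whose starts at 11312826 and 11312805 lie 21 bases apart in RefSeq. At these starts the genes overlap rather than leave a gap.

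Collagen genes differed in how widely they were found. A mean of 10 CPM over libraries was reached in 6 to 20 of the 21 clusters by 17 members, in 2 to 5 by 10, in 1 by 4 (*Col6a6*, *Col9a1*, *Col3a1* and *Col6a5*) and in 0 by 7, and in all 21 clusters by 0. The most widespread were *Col4a1* and *Col4a2*, the common chains of type IV collagen in basement membranes, each in 20 clusters, with I8 as the exception. The highest mean of a member was in a visceral cluster for 16 members, in an interneuron cluster for 11 and in a skeletal cluster for 11. Clusters differed in how many members they held at this level, from 5 in I8 to 16 in S2, V3 and V5. The clusters were drawn from these same nuclei, so levels across clusters are a description.

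**Figure D1:**
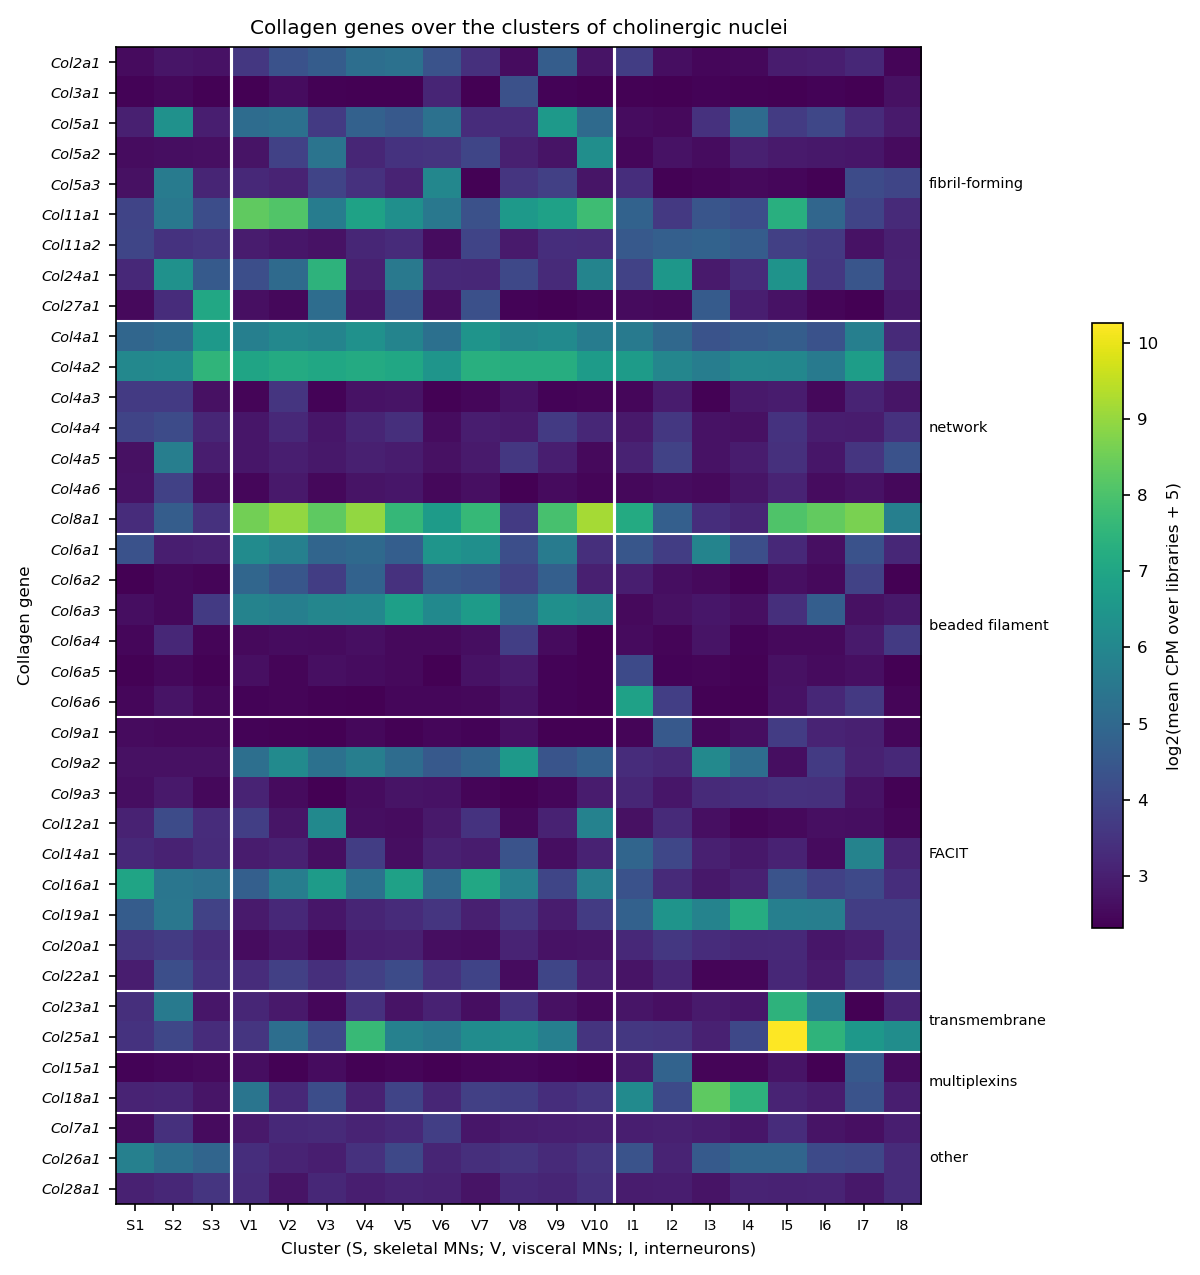
Mean level of the 38 collagen genes (rows, by family) in the 21 clusters (columns), as log2 of the mean CPM over libraries plus 5; white lines part families and classes. *Col25a1* in I5 is the brightest cell at 1216 CPM, *Col8a1* and *Col11a1* fill most visceral columns, and *Col4a1* and *Col4a2* are above 10 CPM in every column but I8.

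Among the fibril-forming collagens, *Col11a1*, which helps to start the fibrils of cartilage, was highest in V1, where 9 libraries had 210 CPM at the lowest, 294 at the median and 443 at the highest. It reached 10 CPM in 19 clusters. *Col27a1*, a cartilage collagen, followed gamma MNs: it was at 97.8, 130 and 181 CPM (lowest, median and highest library) in S3 and at a mean of 30.7 CPM in the next cluster, V3. *Col24a1*, known from developing bone, had 41.4, 75.2 and 495 CPM in V3. The lowest values of S3 for *Col27a1* were far above all of S1 and S2, whereas the libraries of *Col24a1* in V3 were widely spread. The other fibril-forming members peaked at 90.4 CPM in V9 (*Col5a1*), 69.9 in V10 (*Col5a2*), 58.3 in V6 (*Col5a3*), 34.0 in V5 (*Col2a1*), 23.5 in I3 (*Col11a2*) and 14.4 in V8 (*Col3a1*). Type V chains regulate fibril width, type II is the main collagen of cartilage, and type III is found in stretchable tissues. For *Col3a1* this was a mean of 3 libraries with an SD of 13.1 CPM.

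Among the network collagens, *Col8a1*, a short-chain collagen of endothelial and corneal basement membranes, was the leading visceral member. In V10 the 7 libraries with enough nuclei had 244, 720 and 859 CPM (lowest, median, highest), with means of 495 CPM in V4 and 493 CPM in V2, and means of 5.25 CPM in I3 and 3.93 CPM in I4. It reached 10 CPM in 16 clusters. *Col4a1* and *Col4a2* peaked in S3, at 91.4 ± 21.9 and 176 ± 51.4 CPM (SD, n = 9). Over the 21 cluster means on the log2 scale they moved together (Pearson's r = 0.974, Spearman's rho = 0.981), a description of points that share libraries and depth. The chains of the rarer type IV networks, which are known from kidney and from the synaptic basal lamina of muscle, were led by S2: *Col4a5* at 47.9 CPM, *Col4a4* at 12.5 and *Col4a6* at 9.54. *Col4a3* was at 7.63 CPM in S1. The other neighbouring pairs were less alike over clusters (r = 0.657 for *Col4a3* and *Col4a4*, r = 0.675 with rho = 0.311 for *Col4a5* and *Col4a6*).

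The beaded filament collagens split by class. *Col6a1*, *Col6a2* and *Col6a3*, the chains of the usual type VI molecule, peaked in visceral clusters, at 82.5 CPM in V6, 25.7 in V1 and 107 in V5, and *Col6a1* and *Col6a2* had r = 0.752 over clusters. *Col6a6*, a chain that can stand in for that of *Col6a3*, was high in I1 alone: its libraries there had 71.9, 114 and 160.5 CPM (lowest, median, highest), and the next cluster, I2, had a mean of 8.74 CPM. *Col6a5* also peaked in I1, at 12.1 CPM, and *Col6a4* in V8, at 8.82 CPM.

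Among the FACITs, *Col19a1*, a basement membrane collagen known from interneurons that form inhibitory synapses, had 109.6, 149.8 and 158.8 CPM (lowest, median, highest library) in I4. *Col16a1*, which joins other matrix fibres, had 65.2, 137 and 208 CPM in V7 and a mean of 119 CPM in S1. Both were high in clusters of more than 1 kind, *Col19a1* in I2 and I3 as well and *Col16a1* in 16 clusters. *Col9a2*, a chain of the type IX collagen that coats cartilage fibrils, peaked at 90.9 CPM in V8 while its partners *Col9a1* and *Col9a3* peaked at 18.5 CPM in I2 and 5.91 CPM in I5. *Col9a2* and *Col9a3* had r = -0.169 over clusters. *Col12a1*, a collagen of tendon and muscle matrix, peaked at 62.8 CPM in V3, *Col14a1* at 54.1 in I7, *Col22a1*, known from the junction of muscle and tendon, at 13.6 in S2, and *Col20a1* at 8.04 in S2.

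Both transmembrane members were led by I5. *Col25a1*, whose shed part binds amyloid and which motor axons need to enter muscle in the embryo, had 684, 1299 and 2128 CPM there (lowest, median, highest library) and a mean of 200 CPM in the next cluster, V4. *Col23a1* had 94.5, 177 and 279 CPM in I5, followed by means of 46.8 CPM in I6 and 42.5 CPM in S2. The lowest I5 library was thus above the mean of every other cluster for either gene. Of the multiplexins, *Col18a1*, the precursor of endostatin, had 227, 292 and 492.5 CPM in I3 and a mean of 172 CPM in I4, and *Col15a1*, known from capillaries and muscle, peaked at 23.8 CPM in I2. Of the remaining members, *Col26a1* peaked at 50.3 CPM in S1, *Col7a1*, the anchoring fibril of skin, at 8.84 in V6 and *Col28a1* at 6.67 in S3.

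The share of nuclei with a count was then compared between the leading cluster and the cluster with the lowest share. A corrected count of *Col25a1* was found in 86.7% ± 7.93 of I5 nuclei (SD over 9 libraries; median total 7601 corrected counts) and in 2.44% of I3 nuclei (median total 6053.5), the lowest after thinning. After thinning each nucleus to 4000 corrected counts, which left out 21.9% of the nuclei of lumbar/sacral 1 and 0 elsewhere, these were 80.1% and 0.709%. For *Col27a1* the share was 52.9% ± 8.19 in S3 and 0% in V9, and 33.6% and 0% after thinning (median totals 7323 and 9728). *Col6a6* was found in 43.9% ± 7.74 of I1 nuclei and 0.176% of V3 nuclei, 29.7% and 0% after thinning (median totals 6235 and 7159). *Col8a1* in V10 and *Col18a1* in I3 were found in 84.6% of nuclei each, and *Col24a1* in V3 in 45.3%.

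Summed by class, 26 members were tested (limma on log2(CPM + 5), library as a term, adjusted p under 0.05 after Benjamini-Hochberg over all genes tested and a log2 difference of at least 1). Fold changes on this scale understate the change of low genes, and because classes were drawn from these nuclei the tests describe the labels. Visceral MNs differed from skeletal MNs in 15 of the 26 members, beside 11.8% of all genes tested, 10 higher (5.59% of all genes) and 5 lower (6.22%). Interneurons differed from skeletal MNs in 9, beside 10.7% of all genes, 6 higher (4.96%) and 3 lower (5.69%). They differed from visceral MNs in 17, beside 7.75%, 6 higher (3.8%) and 11 lower (3.95%). The median log2 difference of the members was 0.15, 0.20 and -0.97 in these comparisons, and 0.04, -0.02 and -0.05 over all genes. Without replicate 2 all of these calls were kept and 3 members were added in each of the latter 2 comparisons.

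Of the beaded filament collagens 3 of 4 tested were higher in visceral than in skeletal MNs, while of the 5 network collagens *Col8a1* was higher, *Col4a5* lower and 3, among them *Col4a1* and *Col4a2*, were not called. *Col8a1* had 142, 327 and 426 CPM (lowest, median, highest of 9 libraries) in visceral MNs, 73.4, 144 and 183 CPM in interneurons and 2.20, 5.99 and 60.1 CPM in skeletal MNs. Every visceral library lay above every skeletal one, and the highest skeletal value was from the library labelled cervical 2. The log2 difference of visceral from skeletal MNs was 4.49 ± 0.24 (SE). The type VI chains were higher in visceral MNs by 2.78 ± 0.17 (*Col6a3*), 1.96 ± 0.17 (*Col6a1*) and 1.89 ± 0.12 (*Col6a2*). *Col4a5* was lower by 1.14, at 3.04 ± 1.13 against 14.6 ± 10.3 CPM (SD, n = 9).

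Fibril-forming collagens differed in both directions. *Col11a1* had 67.2, 139 and 200.2 CPM in visceral MNs, 5.28, 12.6 and 43.1 in skeletal MNs and 14.6, 32.2 and 64.7 in interneurons, and the visceral libraries did not overlap the others. It was higher in visceral than in skeletal MNs by 2.61 ± 0.22 on the log2 scale. *Col27a1* was at 36.2, 58.6 and 79.0 CPM in skeletal MNs and at no more than 12.6 CPM in visceral MNs and 7.29 CPM in interneurons. This was a log2 difference of -2.43 ± 0.11 for visceral MNs and -2.89 ± 0.11 for interneurons, both against skeletal MNs. *Col2a1* and *Col5a2* were higher in visceral than in skeletal MNs by 1.65 and 1.35, and *Col5a3* was lower in interneurons than in skeletal MNs by 1.16. *Col24a1* ran from 9.56 to 96.5 CPM in visceral MNs, from 8.76 to 59.3 in skeletal MNs and from 17.4 to 36.9 in interneurons, and was called in none of these 3 comparisons.

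*Col25a1*, *Col18a1*, *Col19a1* and *Col6a6* were higher in interneurons than in either class of MNs, and the other transmembrane member tested, *Col23a1*, was called against visceral but not against skeletal MNs. *Col25a1* had 68.98, 211 and 311 CPM (lowest, median, highest) in interneurons, 17.4, 36.4 and 153 in visceral MNs and 3.05, 6.46 and 23.6 in skeletal MNs, so that interneurons overlapped visceral but not skeletal MNs. Interneurons were higher than skeletal MNs by 3.83 ± 0.35 and than visceral MNs by 1.82 ± 0.35 on the log2 scale. *Col18a1* had 66.5, 73.9 and 117 CPM in interneurons against at most 19.9 CPM in visceral and 3.69 CPM in skeletal MNs. *Col19a1* had 41.9, 59.2 and 73.5 CPM in interneurons, 7.86, 22.1 and 36.3 in skeletal MNs and 1.54, 3.59 and 6.13 in visceral MNs, so the 3 classes did not overlap. *Col6a6* had 14.6, 32.0 and 52.4 CPM in interneurons and no more than 1.99 CPM elsewhere. *Col23a1* had 12.5, 28.7 and 45.1 CPM in interneurons, 4.72, 13.5 and 23.7 in skeletal and 1.36, 1.87 and 4.52 in visceral MNs. The overlap of interneurons with skeletal MNs came with no call between these 2 classes, and interneurons were higher than visceral MNs by 2.06 ± 0.24.

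*Col16a1* was instead shared by the MNs. It had 29.9, 63.8 and 74.4 CPM in skeletal MNs, 25.8, 59.0 and 82.1 in visceral MNs and 5.92, 7.74 and 14.6 in interneurons. Interneurons lay below both, by 2.23 ± 0.10 and 2.18 ± 0.10 on the log2 scale. *Col9a2* was higher in visceral MNs (40.6 ± 20.3 CPM) and interneurons (15.5 ± 6.60) than in skeletal MNs (1.46 ± 0.74; SD, n = 9), and *Col26a1* was lower in visceral than in skeletal MNs (5.32 ± 2.00 and 33.6 ± 6.81 CPM).

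**Figure D2:**
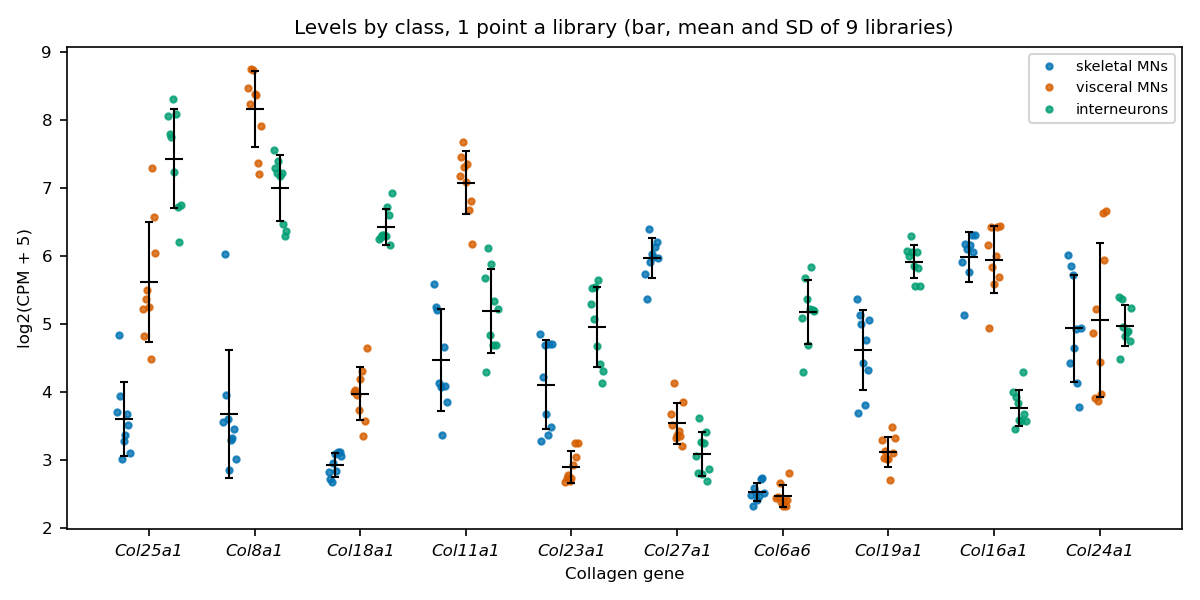
Levels by class of the 10 members with the largest range between clusters (log2 of CPM plus 5; 1 point a library, bars the mean and SD of 9 libraries). *Col8a1* and *Col11a1* are highest in visceral MNs, *Col27a1* in skeletal MNs, and *Col25a1*, *Col18a1*, *Col19a1* and *Col6a6* in interneurons, while *Col24a1* overlaps in all 3; the high skeletal points of *Col8a1* and *Col25a1* are the library labelled cervical 2.

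The genes that make and meet collagen were given by lists of 19 hydroxylases and chaperones, 14 processing and cross-linking enzymes, 14 receptors, 15 basement membrane partners and 12 collagen-cleaving proteases, of which 15, 8, 8, 7 and 4 were tested between classes. Between visceral and skeletal MNs, 3, 3, 0, 1 and 1 of these differed, beside the 11.8% of all genes given above. *Colgalt2*, which adds galactose to the hydroxylysines of collagen, was lower in visceral MNs (3.28 ± 1.39 against 56.5 ± 9.09 CPM, SD, n = 9), and *Plod2*, a lysyl hydroxylase, was higher (27.9 ± 7.97 against 5.95 ± 3.05). *P3h2*, a prolyl hydroxylase of type IV collagen, was lower by 1.16 on the log2 scale. Of the procollagen proteases, *Tll1* was lower by 1.81 and *Adamts2* by 1.08, and *Tll2* was higher by 1.68. *Lama2*, a laminin chain, was higher by 1.20, and *Mmp16*, a membrane-bound protease, by 1.12. Between interneurons and skeletal MNs, 2, 2, 1, 4 and 1 of the lists differed, beside 10.7% of all genes: *Colgalt2* (-2.45), *Plod1* (-1.02), *Adamts2* (-2.03), *Bmp1* (-1.53), *Ptprd* (1.18), *Lama3* (-2.24), *Lama2* (1.51), *Lama1* (1.31), *Lama5* (-1.08) and *Mmp16* (1.67). Between interneurons and visceral MNs, 0, 2, 1, 3 and 0 differed, beside 7.75% of all genes: *Tll1* (1.80), *Tll2* (-1.30), the integrin *Itga11* (-1.31), *Lama1* (1.78), *Lama3* (-1.60) and *Lama5* (-1.12). All values in parentheses are log2 differences.

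Collagen levels also differed between the 3 skeletal types. Of 24 members tested, S2 (alpha) differed from S1 (type 3) in 10, beside 5.23% of all genes tested, 8 higher (3.24% of all genes) and 2 lower (2%). It differed from S3 (gamma) in 12, beside 8.12%, 8 higher (4.83%) and 4 lower (3.29%). S3 differed from S1 in 7, beside 5.33%, 5 higher (2.58%) and 2 lower (2.75%). The markers of each type had their highest median sum in that type. The 3 alpha markers had 1009 CPM in S2 and 62.3 and 85.2 CPM in S1 and S3, and the 2 type 3 markers 671 CPM in S1, 184 in S2 and 53.8 in S3. The 3 gamma markers had 3059 CPM in S3 (2840 to 4187), 2223 in S1 (2000 to 3026) and 1543 in S2 (1012 to 1845), so that S3 and S1 overlapped in these.

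In gamma MNs *Col27a1* and, of the type IV chains, *Col4a1* and *Col4a2* were higher than in both other types. *Col27a1* had 97.8, 130 and 181 CPM in S3 (lowest, median, highest of 9 libraries) against at most 11.5 CPM in S2 and 1.42 CPM in S1. The log2 difference of S3 from S1 was 4.55 ± 0.15, and that of S2 from S3 was -3.85 ± 0.15. *Col4a1* had 54.8, 96.9 and 118 CPM in S3, 2.94, 30.8 and 63.1 in S2 and 11.8, 25.1 and 40.6 in S1, and *Col4a2* had 126.5, 159.6 and 274 CPM in S3, 29.6, 70.4 and 95.8 in S2 and 33.6, 56.7 and 100.7 in S1. S3 did not overlap S1 for either gene, and overlapped S2 for *Col4a1* only. The log2 differences of S3 from S1 were 1.68 ± 0.19 and 1.49 ± 0.12.

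In alpha MNs the type V chains *Col5a1* and *Col5a3* and the type IV chains *Col4a5* and *Col4a6* were higher than in both other types, whereas *Col4a3* and *Col4a4* were not called against S1. *Col5a1* had 1.96, 70.0 and 197 CPM in S2 (lowest, median, highest) and no more than 6.82 CPM in S1 and 5.86 CPM in S3. *Col4a5* had 13.2, 44.8 and 106 CPM in S2 and no more than 2.84 and 4.53 CPM in S1 and S3. *Col5a3* had 3.93, 53.8 and 83.7 CPM in S2 and no more than 5.80 and 7.28 CPM in S1 and S3. The lowest S2 values of *Col5a1* and *Col5a3* came from the library labelled cervical 2, whose S2 nuclei also held 146 CPM of *Col8a1*, and the other S2 libraries did not overlap S1 or S3 for these genes. S2 was higher than S1 by 2.87 ± 0.32 (*Col5a1*), 2.87 ± 0.22 (*Col4a5*), 2.72 ± 0.24 (*Col5a3*), 2.62 ± 0.35 (*Col24a1*), 2.04 ± 0.27 (*Col23a1*), 1.54 ± 0.19 (*Col11a1*), 1.20 ± 0.21 (*Col22a1*) and 1.02 ± 0.23 (*Col4a6*). All but *Col22a1* were also higher in S2 than in S3, as was *Col19a1*. In type 3 MNs *Col16a1* had 82.3, 124.5 and 144 CPM in S1 against at most 62.0 CPM in S2 and 50.1 CPM in S3, and *Col6a1* was at 15.1 ± 8.79 CPM in S1, 2.99 ± 2.37 in S2 and 3.35 ± 2.42 in S3 (SD, n = 9). Without replicate 2 all calls were kept (10 of 10, 12 of 12 and 7 of 7), and the counts were 12, 13 and 7.

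**Figure D3:**
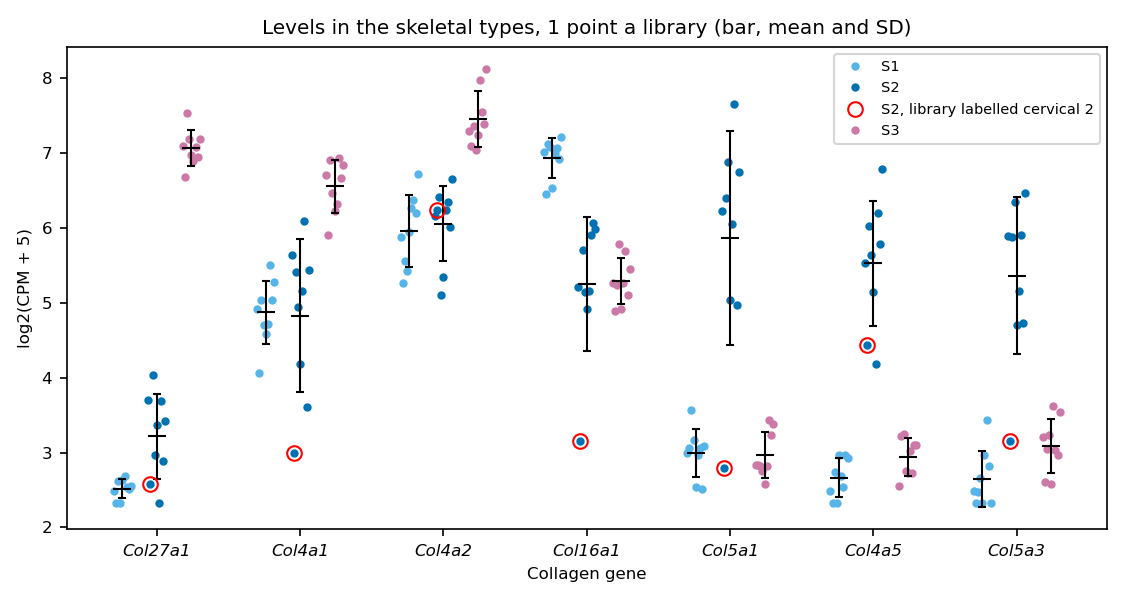
Levels of 7 collagen genes in the skeletal types S1, S2 and S3 (log2 of CPM plus 5; 1 point a library, bars the mean and SD of 9 libraries; the red ring marks S2 of the library labelled cervical 2). *Col27a1*, *Col4a1* and *Col4a2* are highest in S3, *Col16a1* in S1, and *Col5a1*, *Col4a5* and *Col5a3* in S2, where the ringed library is among the lowest.

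Whether collagen levels differ along the cord was asked within each class, as lumbar/sacral (3 libraries) against rostral (6 libraries), with no fold threshold. In visceral MNs 5 of 17 members tested were called, beside 4.27% of all genes tested. In each the lumbar/sacral libraries did not overlap the rostral ones. With so few libraries a call tends to bring this with it, so it adds no support. The share of all genes without overlap is not given. *Col24a1* and *Col25a1* were higher, and *Col8a1*, *Col11a1* and *Col12a1* were lower. *Col24a1* was at 94.2, 56.4 and 96.5 CPM in lumbar/sacral 1, 2 and 3 and at 9.56, 13.6 and 32.1 CPM (lowest, median, highest) in the rostral libraries, a log2 difference of 2.04 ± 0.30 (adjusted p = 0.0049). The lumbar/sacral libraries thus all lay well above the highest rostral one. *Col25a1* was at 153, 90.3 and 60.7 CPM against 17.4, 32.6 and 40.0 CPM rostrally, a difference of 1.53 ± 0.30 (adjusted p = 0.024). *Col8a1* was at 160, 142 and 235 CPM against 295, 339 and 426 CPM, a difference of -0.998 ± 0.18 (adjusted p = 0.016). It was lower in every lumbar/sacral library, as was the fibril-forming *Col11a1*, at 97.2, 107 and 67.2 CPM against 131, 156 and 200.2 CPM (-0.79 ± 0.17, adjusted p = 0.031). *Col12a1* was at 2.58, 2.61 and 5.47 CPM against 11.1, 15.1 and 19.1 CPM (-1.23 ± 0.20, adjusted p = 0.0091).

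The makeup of the visceral class differed between regions. V8 held 30.5% of visceral nuclei in the lumbar/sacral libraries and 0.0861% in the rostral ones, and V9 0.300% and 6.17% (means over libraries), and a shift of clusters and a change within nuclei cannot be told apart in class sums. Without the nuclei of V8 and V9, *Col24a1* was the 1 member still called (2.42 ± 0.32, adjusted p = 0.0066). Without the libraries labelled cervical 2 and thoracic 2, *Col24a1*, *Col12a1* and *Col8a1* were called, *Col11a1* and *Col25a1* were not, and the type V chains *Col5a1* (-1.39 ± 0.21) and *Col5a3* (-1.50 ± 0.29) were added. With the replicate as a block all 5 were called, and so were *Col5a1* (-1.03 ± 0.16, adjusted p = 0.0089) and *Col5a3* (-1.22 ± 0.22, adjusted p = 0.018). Leaving out lumbar/sacral 1 or lumbar/sacral 2 left 1 call each. The fibroblast or meningeal markers, nearly all of it the fibronectin gene *Fn1*, summed to 3.40 CPM in lumbar/sacral and 19.0 CPM in rostral visceral MNs (means), with 2 of the 6 markers at 0 in every visceral library, and the astrocyte markers summed to 2.18 and 4.27 CPM. Endothelial markers went the other way (15.9 and 8.32 CPM), as did pericyte (4.93 and 2.03 CPM) and microglia markers (42.0 and 24.8 CPM). These sums were led by few genes. Over all visceral libraries *Tek* had a mean of 7.82 CPM and *Pecam1* 2.21, but *Flt1* 0.70 and *Kdr* 0.10. Of the microglia markers *P2ry12* had 19.4 CPM and *Cx3cr1* 10.6, but *Csf1r* 0.48 and *Tmem119* 0.04. The part of these markers in the collagen differences was not tested. Among the genes of the machinery lists, *Mrc2*, a receptor that takes up collagen, was higher in lumbar/sacral visceral MNs (49.2 ± 10.1 against 11.4 ± 1.38 CPM, n = 3 and 6), as were *Tll2* (1.60 on the log2 scale) and *Pcolce2* (0.69), and *Lama3* (-1.61) and *Adamts2* (-1.41) were lower.

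In interneurons 1 of 16 members was called, beside 0.051% of all genes tested. *Col8a1* was at 83.5, 73.4 and 77.2 CPM in lumbar/sacral 1, 2 and 3 and at 140.3, 148 and 183 CPM (lowest, median, highest) in the rostral libraries, a log2 difference of -0.94 ± 0.10 (adjusted p = 0.029). It was thus lower in the lumbar/sacral libraries of both classes. The interneuron call was lost when any 1 library was left out other than those labelled cervical 2 and thoracic 2, and under scaling by the median of ratios (adjusted p = 0.16). *Col25a1* was at 100.4, 68.98 and 102.5 CPM against 145, 239 and 311 CPM, and *Col23a1* at 16.3, 12.5 and 14.8 CPM against 20.5, 37.6 and 45.1 CPM. Neither pair of groups overlapped and neither gene was called, but *Col25a1* was called with the replicate as a block (-1.31 ± 0.15, adjusted p = 0.0196), and both were called without the libraries labelled cervical 2 and thoracic 2 (-1.49 ± 0.16 and -1.11 ± 0.13). The makeup of interneurons differed as well. I5 and I6, which led the interneuron clusters for these 2 genes, held 177 and 171 lumbar/sacral nuclei and 407 and 373 rostral ones. I1, I3 and I4 held 755, 393 and 397 lumbar/sacral and 765, 363 and 305 rostral nuclei. A shift of clusters and a change within nuclei cannot be told apart in these sums. In skeletal MNs 0 of 13 members were called, beside 0.01% of all genes, and 1 had an unadjusted p under 0.05. Without the libraries labelled cervical 2 and thoracic 2 these were 0 and 2 of 13, beside 0.0102% of all genes called. Cervical against thoracic libraries, as labelled, gave 0 calls among all genes in each class by limma, and 1 member with an unadjusted p under 0.05 in each. Without the same 2 libraries 0 members were called in each class, and an unadjusted p under 0.05 was found for 1 member in skeletal MNs and 4 each in interneurons and visceral MNs.

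The regional differences of the class sums were not alike in the classes. In these sums a shift of clusters cannot be told apart from a change within nuclei. A test of the difference itself, added after the data were seen, called 7 of 23 members between visceral MNs and interneurons, beside 9.31% of all genes. *Col25a1*, higher in lumbar/sacral visceral MNs and at lower levels in lumbar/sacral interneurons, gave a difference of 2.84 ± 0.35 on the log2 scale (adjusted p = 0.00061), and *Col24a1* one of 2.06 ± 0.18. Between visceral and skeletal MNs 3 of 23 members were called (*Col24a1*, *Col25a1* and *Col12a1*), beside 6.23% of all genes, and between interneurons and skeletal MNs 0 of 21, beside 0.264%. Without the libraries labelled cervical 2 and thoracic 2 the counts were 8, 4 and 0, beside 9.9%, 6.66% and 0.476% of all genes, with all 7 and all 3 of the calls kept and *Col6a2* added in both. With the replicate as a block *Col5a1* and *Col5a3* were added between visceral and skeletal MNs. Leaving out any 1 lumbar/sacral library left *Col24a1* as the 1 of the 3 still called between visceral and skeletal MNs.

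**Figure D4:**
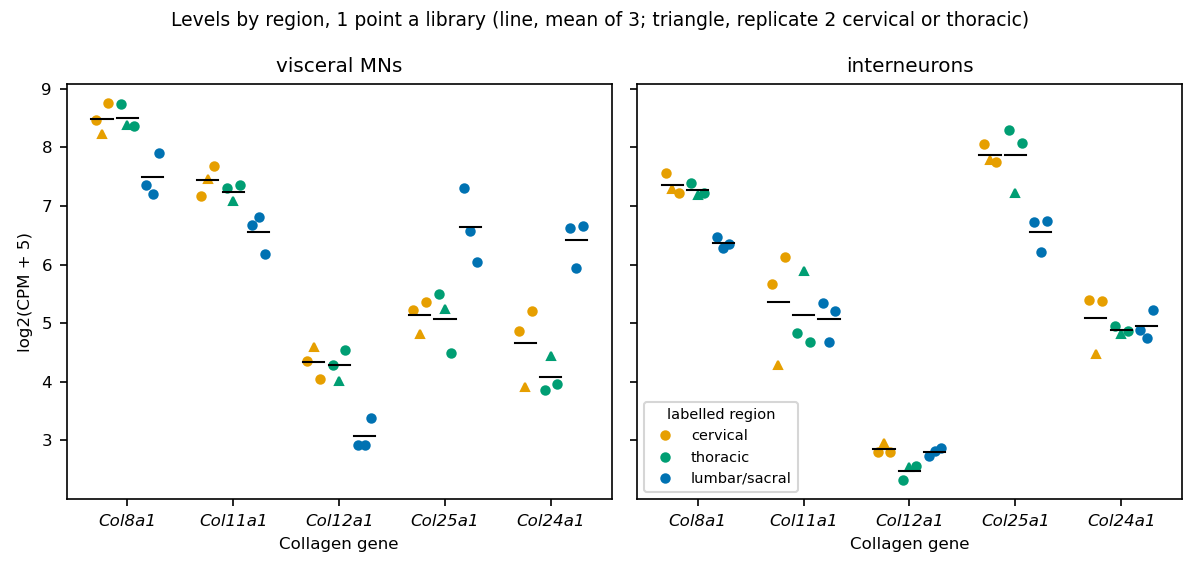
Levels by labelled region of the 5 members called in visceral MNs, in visceral MNs (left) and interneurons (right), as log2 of CPM plus 5 (1 point a library, lines the mean of 3, triangles replicate 2 of the cervical and thoracic labels). In visceral MNs the lumbar/sacral points lie apart from all rostral ones for each gene, up for *Col25a1* and *Col24a1* and down for the rest; in interneurons they lie lower for *Col8a1* and *Col25a1*.

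Regions were then compared within 18 clusters, where makeup by these labels is fixed. Over 234 tests of members 12 calls were made, in 6 clusters. In all 12 calls lumbar/sacral and rostral libraries did not overlap, which tends to come with a call and adds no support. The share of all genes with no overlap is not given. V2 (234 lumbar/sacral and 537 rostral nuclei) had 4 of them, from 15 members, beside 3.25% of all genes. *Col8a1* was at 191.5, 245 and 232 CPM in lumbar/sacral 1, 2 and 3 and at 477, 636 and 721 CPM (lowest, median, highest) rostrally, a log2 difference of -1.47 ± 0.17. *Col24a1* was at 118, 31.2 and 92.0 CPM against 0, 0.924 and 11.1 CPM (3.44 ± 0.48), and *Col25a1* at 154, 71.3 and 16 CPM against 4.81, 6.32 and 13 CPM (2.41 ± 0.50). *Col11a1* was at 118, 140 and 4.00 CPM against 316, 351 and 474 CPM (-2.75 ± 0.64), with the lowest value far below the other 2 of its group. The 4 genes had the same directions in V2 as in the whole visceral class.

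In V3, 2 of 18 members were called, beside 1.84% of all genes. *Col24a1* was at 420, 234 and 495 CPM against 41.4, 67.7 and 96.6 CPM (2.45 ± 0.28, adjusted p = 0.00033), and *Col12a1* at 4.91, 8.13 and 13.6 CPM against 28.2, 88.3 and 159 CPM (-2.52 ± 0.51). The wide spread of *Col24a1* in V3 over all 9 libraries was thus a split by region. The fibroblast or meningeal markers were lower there in the lumbar/sacral sums as well, at a mean of 15.2 CPM in lumbar/sacral and 97.8 CPM in rostral V3 sums, of which *Fn1* made 2.455 to 30.5 CPM and 57.3 to 167 CPM. Astrocyte markers were at 2.94 and 21.6 CPM there, and the part of both lists in the collagen differences was not tested. In V4 the cartilage collagen *Col2a1* was at 9.45, 5.32 and 13.7 CPM against 15.5, 42.6 and 72.1 CPM (-1.63 ± 0.37; 1 of 13 members, 2.94% of all genes). In V5 *Col6a3* was at 65.8, 25.9 and 17.6 CPM against 84.7 to 225 CPM in 4 rostral libraries (-2.07 ± 0.41; 1 of 16, 1.2% of all genes), beside fibroblast or meningeal markers at means of 1.95 and 30.6 CPM, whose part was not tested.

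V6 held 3 calls of 14 members, beside 11.4% of all genes, from 2 lumbar/sacral libraries of 10 and 13 nuclei. *Col5a3* and *Col6a2* were at 0 in both, against 30.3, 81.5 and 111 CPM and 16.6, 23.1 and 33.7 CPM in the rostral libraries. With the lumbar/sacral group set at a floor of 3 counts, *Col5a3* was at least 3.37-fold lower and *Col6a2* at least 1.13-fold lower. *Col9a2* was at 48.6 and 29.3 CPM against 7.0, 11 and 17.3 CPM (1.43 ± 0.39), a call lost with the replicate as a block (adjusted p = 0.0598). Its 2 lumbar/sacral values rested on 5 corrected counts in all, where 3 counts equal 23.1 CPM. In I6 the call was *Col8a1*, at 144, 143.5 and 161 CPM against 265, 404 and 543 CPM (-1.38 ± 0.19; 1 of 13 members, 0.925% of all genes), so that *Col8a1* was lower in a visceral and an interneuron cluster. With the replicate as a block 26 calls were made, 11 of the 12 among them, and those added included *Col25a1* in V4 (1.82 ± 0.33), I7 (-2.22 ± 0.35) and I8 (2.99 ± 0.48) and *Col8a1* in I5 (-1.20 ± 0.17). Leaving out replicate 1 left 2 calls and leaving out replicate 2 left 6. Without the libraries labelled cervical 2 and thoracic 2, 14 calls were made, 9 of the 12 among them, and those lost were *Col25a1* and *Col11a1* in V2 and *Col9a2* in V6. The shares of all genes called within clusters under these settings are not given, so these counts cannot be set beside them.

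No member was called between the male and the female pool (region as a term), beside 0.0725% of all genes in skeletal MNs, 0.0513% for visceral MNs and 0.0521% among interneurons. The members with an unadjusted p under 0.05 were 3 of 9, 7 of 16 and 2 of 15, beside 12.4%, 14.2% and 13.8% of all genes tested. Over all members tested the median log2 difference, male minus female, was -0.46, -0.59 and -0.39, against -0.02, 0.02 and 0.04 over all genes. Of the members with a mean of 10 CPM in the class, 4 of 13, 8 of 17 and 6 of 15 were lowest in replicate 2 in all 3 regions, beside 14.5%, 12.3% and 11.8% of all genes with such a mean, and this pool also held the 2 libraries that went against their labels. Without cervical 2 or cervical 3 the counts of calls were 2, 4 and 5 and 2, 4 and 3 in fits with 1 residual degree of freedom, beside 13.7%, 3.81% and 13.5% and 13.8%, 4.4% and 14% of all genes called.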

How the data were processed

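Nuclei were sorted as GFP+ and read with 3′ single-nucleus RNA sequencing, and the authors used Cell Ranger 3.1.0, a GRCm38 pre-mRNA reference and Seurat. The deposited values are counts that the authors corrected with SCTransform in each region apart, and were handled as a score rather than a molecule count, so no count model was used. Classes, clusters and skeletal types are the labels the authors deposited for each nucleus; doublets were not called again. After this correction nuclei within a library have nearly equal totals, and how it changed the collagen levels was not tested.

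Values were added up per library within each class or cluster (10 nuclei or more) and scaled to CPM. Genes that reached 10 CPM in 3 or more sums were fitted with limma 3.58.1 (R 4.3.3, trend) on log2(CPM + 5), with p-values adjusted over all genes tested after Benjamini-Hochberg. Classes and skeletal types had the library as a term, regions none, and the pools of each sex the region; the difference of regional changes between classes was fitted, without a trend and after seeing the data, to the paired differences of class sums in a library. The fits were tested on simulated data with 200 changed genes, independent libraries and no effect of the pool. In the layouts of classes, regions, clusters (V2) and pools of each sex, 99%, 100%, 90.5% and 100% of these were recovered. Of the calls, 0%, 5.66%, 6.22% and 1.96% were false. How the fits behave where libraries share a pool, as here, was not tested. Alternatives were median-of-ratios scaling, pseudocounts of 1 and 20, no filter or at least 10 corrected counts in every sum, the replicate as a block, no library term, and each replicate left out; those chosen after seeing the data left out the cervical and thoracic libraries of replicate 2, or V8 and V9, or set at least 20 nuclei, and all those of the difference between classes. The alternative of thinned shares used 4000 corrected counts and the seed 1. Other steps used Python 3.11.15, numpy 2.4.6, pandas 2.3.3, scipy 1.17.1 and matplotlib 3.10.9.

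By their labels, replicate numbers pair the libraries, since the same mice gave all 3 regions. Deviations of same-numbered libraries from their region means had a median correlation of 0.65 to 0.749 in the 3 classes (lowest -0.22), and those of other pairs -0.454 to -0.401 (highest 0.612). This highest value was that of cervical 2 with thoracic 3 in interneurons, above the 0.488 of cervical 2 with thoracic 2. In skeletal MNs, visceral MNs and interneurons, cervical 3 had -0.22, -0.136 and -0.191 with thoracic 3, but 0.424, 0.318 and 0.424 with thoracic 1. It had -0.117, -0.0137 and -0.0661 with lumbar/sacral 3, but 0.458, 0.367 and 0.438 with lumbar/sacral 1. The pairing by number was thus not borne out for cervical 3, and results with the replicate as a block rest on it. With 3 pools, p-values measure the spread between these libraries. The members and gene lists were chosen with earlier results of these data known. All members are named; library values are given for the 10 with the largest range between cluster means and for those called within regions or clusters, and machinery genes, at most 4 a list, where called between classes. Floors of 3 counts cover counting error only, while the SDs and SEs measure spread between libraries. *Col21a1* was not analysed here.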

Additional observations from a re-analysis of the deposited data

Results flagged for a closer look

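Of 103 groups of libraries tested among 16 named members, 5 had 1 library with a gap to the others above the critical value of Dixon's test, a rate close to the 1 in 20 that chance gives. In skeletal MNs the library labelled cervical 2 was highest for *Col25a1* (23.6 CPM) and *Col8a1* (60.1 CPM), the same library in which S2 nuclei held visceral markers. In I4, lumbar/sacral 3 was lowest for *Col19a1* (109.6 CPM). In S1, lumbar/sacral 1 was highest for *Col5a3* (5.80 CPM) and cervical 1 for *Col6a3* (4.79 CPM). The part of the mixed nuclei in these values was not tested.

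The lumbar/sacral minus rostral difference itself differed between classes for 10 pairs of gene and classes, tested as a difference of log2 differences with limma after the data were seen. Between visceral MNs and interneurons it was larger in visceral MNs for *Col25a1* (2.84), *Col24a1* (2.06) and *Col23a1* (1.44) and smaller for *Col12a1* (-1.37), *Col5a3* (-1.29), *Col5a1* (-1.27) and *Col6a1* (-1.06). Between visceral and skeletal MNs it was larger for *Col24a1* (3.01) and *Col25a1* (1.79) and smaller for *Col12a1* (-1.10). *Col23a1* was low in visceral MNs, at medians of 4.48 CPM in lumbar/sacral and 1.67 CPM in rostral libraries. In interneurons its medians were 14.8 and 37.6 CPM. *Col12a1* and *Col5a3* were low in interneurons, at medians of 2.09 and 3.13 CPM in lumbar/sacral and 1.42 and 2.24 CPM in rostral libraries. In visceral MNs their medians were 2.61 and 5.16 CPM against 15.1 and 15.1 CPM. The part of each class in these differences was not tested.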

How the results depend on the processing

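No called member changed its direction under any alternative run. With a pseudocount of 20 the members called fell from 15 to 8 between visceral and skeletal MNs, from 17 to 9 between interneurons and visceral MNs, from 10 to 6 for S2 against S1 and from 7 to 4 for S3 against S1. With a pseudocount of 1 they rose from 9 to 17 between interneurons and skeletal MNs. With at least 10 corrected counts in every sum, which left 7 members to test between classes, 3 were called between visceral and skeletal MNs, 2 between interneurons and skeletal MNs and 3 between interneurons and visceral MNs, and of the 2 left between types 0, 1 and 1 for S2 against S1, S2 against S3 and S3 against S1. Between regions, 1 member was called in visceral MNs without V8 and V9. In interneurons 0 were called with scaling by the median of ratios, 2 with the replicate block and 3 without the cervical and thoracic libraries of replicate 2. Within clusters the replicate block raised the count from 12 to 26, and for the difference of regional changes between visceral and skeletal MNs from 3 to 5. The shares of all genes called under an alternative are given only where stated, so the other counts cannot be set beside them. The block changed no call in other region comparisons apart from those given with the results. With 1 replicate or library left out, the counts ran from 12 to 15, 9 to 12 and 16 to 20 for the 3 class comparisons, 7 to 12, 9 to 13 and 5 to 7 for S2 against S1, S2 against S3 and S3 against S1, 1 to 7 and 0 to 3 for regions in visceral MNs and interneurons, 2 to 9 within clusters, 6 to 8, 1 to 4 and 0 to 1 for the difference of regional changes (visceral MNs and interneurons, visceral and skeletal MNs, then interneurons and skeletal MNs), and 0 to 2, 0 to 4 and 0 to 5 between pools of each sex (skeletal MNs, then visceral MNs, then interneurons), and 35 to 37 genes passed the rule in place of 38. The cause of these changes was not tested.
Thinning moved 7 of 10 shares in leading clusters by more than 1 SD. Of the 38 members 7 stayed under a mean of 10 CPM in every cluster, and V6 had 2 lumbar/sacral libraries with at least 10 nuclei.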
